A study of Mus musculus with 29 samples.

Results

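Genes of Toll-like receptor signalling were followed across the immune and vascular cells of the mouse brain, and across blood leukocytes, after experimental stroke. The set held 6 genes: the receptors Tlr2, Tlr4 and Tlr7, the co-receptors Cd14 and Ly96, and the adaptor Myd88. They were taken by symbol from every deposited count table, and all 6 were found in the 19704 genes of the young brain tables, the 27514 of the aged brain tables and the 16623 of the blood tables. Single cells were profiled by Drop-seq, in which each cell is captured in a droplet with a barcoded bead. Counts were summed over the cells of one library and one cell type of the authors' deposited annotation, and are given as CPM, the counts scaled to a sum of 1000000 per library and type. All mice were C57BL/6J. Stroke was made by blocking the middle cerebral artery for a time, and sham-operated mice were the controls. Young mice were males of 8 to 10 weeks, and their brain libraries fell into sham at day 2 (4 libraries), stroke at day 2 (4) and stroke at day 14 (4). Aged mice were 17 to 20 months old and of both sexes, with sham at day 2 (2 libraries, 1 of each sex), stroke at day 2 (3, of which 2 female) and stroke at day 14 (1, female). Young blood was taken from sham at day 2 (4 libraries), stroke at day 2 (4) and stroke at day 14 (3). Each brain library pooled 4 to 5 hemispheres, digested with papain and sorted for CD45-high cells, microglia and endothelial cells. Each blood library pooled 2 mice, after lysis of red cells and removal of Ter-119-positive cells, and inhibitors that included actinomycin D were present in both preparations. There was no sham group at day 14. The day 2 sham libraries therefore serve as controls for either stroke time, and those comparisons share them.

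Toll-like receptors are membrane sensors of microbial products and of molecules set free by damaged cells. TLR2 and TLR4 sit at the cell surface and recognise bacterial lipoproteins and lipopolysaccharide, while TLR7 sits in endosomes and recognises single-stranded RNA. CD14 binds lipopolysaccharide and passes it to the complex of TLR4 with MD-2, the product of Ly96, and MyD88 links these receptors to kinases that activate NF-kB and the transcription of cytokines. In the brain these receptors are best known from microglia, the resident macrophages. In RefSeq on GRCm38.p6, Tlr2 lies at chr3:83836272-83841824, Tlr4 at chr4:66827551-66846581, Tlr7 at chrX:167303380-167330574, Ly96 at chr1:16688456-16709605 and Myd88 at chr9:119335934-119340018.

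Promoter windows of 300 bases around the RefSeq start were at hand for 2 of the 6 genes, Tlr2 and Myd88, and 2 stretches are shown because they carry letters of the factors through which these receptors signal. The NF-kB consensus was searched on both strands and matched the Tlr2 stretch at chr3:83841762-83841791 (minus strand, GRCm38.p6) by 2 overlapping matches, from 173 bases before the start. That start lies inside the annotated span of Tlr2, so the stretch does too. A further match to this consensus, not printed, began 8 bases before the start. The core of the interferon response element, GAAANNGAAA on either strand, matched the Myd88 stretch at chr9:119340039-119340068 (minus strand, GRCm38.p6), 40 bases before the start. It overlapped a match to the STAT core, TTCNNNGAA, 46 bases before the start. Capitals mark the letters of the NF-kB and interferon response element matches.
Tlr2: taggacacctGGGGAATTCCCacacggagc
Myd88: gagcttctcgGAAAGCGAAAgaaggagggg
Of 32851 such windows of mouse genes, 4.51% held the NF-kB consensus, 3.44% the interferon response element core and 8.3% the STAT core. These are matches of letters, and binding was not measured.

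The 29 libraries held 106977 cells, 55268 from brain and 51709 from blood, with 1143 to 6328 cells and 819438 to 5855047 counts per library. The median count per cell was 320.8 to 1363.2, so only sums over cells were used, and a lower sum in fewer positive cells cannot be told apart from less RNA in each cell. Of 406 pairs of libraries, 231 shared at least 1 cell barcode, with at most 7 in a pair. Lists of markers were ranked in each cell type by the mean log2(CPM + 1) of their genes, pooled over libraries. The list written for a type was the highest in it for the types described here, with 2 exceptions. In blood dendritic cells the monocyte list was higher than the dendritic one, and there was no list for eosinophils and basophils. By summed CPM, given below, the monocyte list was also the higher one in brain dendritic cells in sham and at day 14. One library stood apart. Microglia of the young stroke day 2 library of replicate 3 (58 cells) had a sum of microglial markers of 816.5 CPM, against 12900 to 14740 CPM in the other 3 stroke day 2 libraries, 16330 to 23460 in sham and 11550 to 16020 at stroke day 14, so the 6 genes and the pathway list in microglia at day 2 are also given without it. The 12 young brain libraries also fell into 5 with a median mitochondrial share of 0.23% to 0.56% and 7 with 1.67% to 3.38%, and both kinds were present in each group. With this class as a term in the fit, the number of the 6 genes called was the same in all 18 comparisons within young brain.

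In young brain the receptors were found in myeloid cells, and each had its own order of cell types. Averaged over the 12 sham and stroke libraries, Tlr2 was highest in granulocytes, monocyte-derived cells, microglia and border-associated macrophages, Tlr7 in microglia and border-associated macrophages, and Tlr4 in border-associated macrophages, microglia and, by its mean, granulocytes. Cell types were compared within libraries by an exact two-sided paired permutation test on log2(CPM + 1). It was adjusted over the 216 tests in brain, 36 pairs of types for each of 6 genes, of which 106 passed. Pairs with NK cells had 6 libraries. Their smallest possible permutation p of 0.0312 became 0.0519 after adjustment, so none of them could pass here. Tlr2 averaged 306 ± 172 CPM (SD, n = 12 libraries) in granulocytes, 250.2 ± 83.7 in monocyte-derived cells, 196 ± 133 in microglia and 181 ± 95.6 in border-associated macrophages. Granulocytes and monocyte-derived cells did not differ beyond their spread (adjusted exact permutation p = 0.822), nor did monocyte-derived cells and microglia (0.0531), while granulocytes exceeded microglia by 0.67 on the log2 scale in 8 of 12 libraries (0.0178). Dendritic cells followed with 76.2 ± 34.9 CPM, lower than microglia by a mean of 1.13 in 9 of 12 libraries (0.0277). The order of these 2 types was that of the stroke libraries: microglia held more Tlr2 than dendritic cells in 4 of 4 libraries at each stroke time and in 1 of 4 sham libraries. Monocyte-derived cells lay above microglia in every sham library (85.6 to 309 against 39.0 to 79.9 CPM). At day 14 the ranges of monocyte-derived cells and microglia overlapped (216 to 322 against 172.8 to 473.5 CPM). Granulocytes held more Tlr2 than monocyte-derived cells in 4 of 4 libraries at day 2, 3 of 4 at day 14 and 0 of 4 in sham. Tlr2 in endothelial cells averaged 4.87 CPM, below microglia in 12 of 12 libraries (0.00377).

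Tlr4, the receptor for lipopolysaccharide, averaged 52.6 ± 54.3 CPM in granulocytes, 38.6 ± 16.6 in border-associated macrophages, 24.9 ± 14.2 in microglia and 11.99 ± 7.44 in monocyte-derived cells. The order of these means was not that of every group: in sham microglia averaged 41.6 CPM, border-associated macrophages 37.4 and granulocytes 30.0, against 19.3, 49.2 and 96.8 CPM at stroke day 2 and 13.8, 29.1 and 31.1 CPM at day 14. Border-associated macrophages exceeded monocyte-derived cells in 12 of 12 libraries by 1.97 log2 units (adjusted exact permutation p = 0.00377), but not microglia beyond the spread (0.0685). Granulocytes had the highest mean but 3 of their 12 libraries were at 0, and paired within libraries they lay below border-associated macrophages by 0.90 (0.365) and below microglia by 0.17 (0.865), neither beyond the spread. No Tlr4 count was found in T cells of 11 libraries, which allows up to 3.38 CPM, or in NK cells of 6, which allows up to 9.36 CPM. These limits come from 3 counts in the pooled total and cover counting error only. Tlr7 had an order of its own and was low in granulocytes. It averaged 122 ± 52.9 CPM in microglia, 95.4 ± 89.8 in border-associated macrophages and 45.7 ± 24.2 in monocyte-derived cells, but 4.93 in granulocytes. Microglia exceeded monocyte-derived cells by 1.72 log2 units and granulocytes by 5.54, each in 12 of 12 libraries (0.00377 for both), while microglia and border-associated macrophages did not differ beyond the spread (0.125). Of the lymphocytes in brain, B cells held 28.2 CPM of Tlr7.

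**Figure D1:**
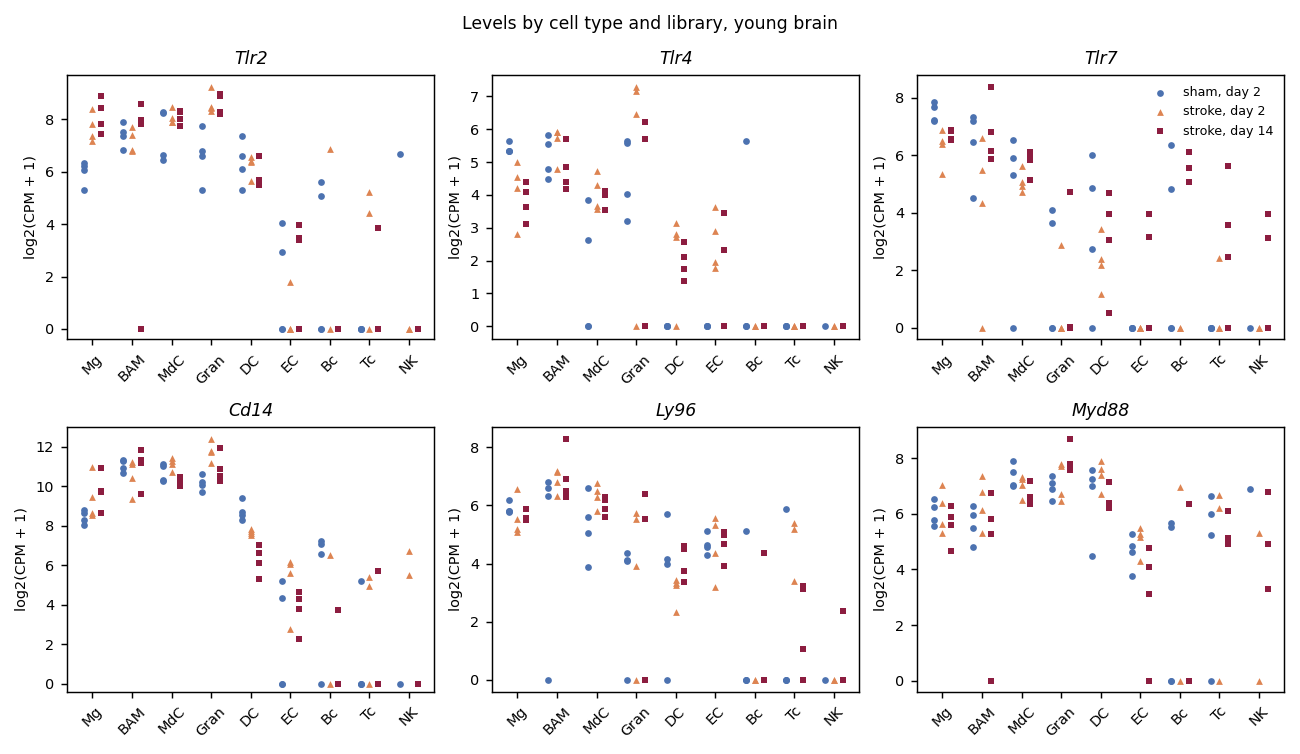
Level of each gene in 9 cell types of young brain, as log2(CPM + 1), 1 panel per gene; each point is a library, with sham day 2 as blue circles, stroke day 2 as orange triangles and stroke day 14 as dark red squares. Cd14 and Tlr2 lie high in the 4 myeloid types at the left and low in endothelial cells and lymphocytes, Tlr7 is low in granulocytes, and Myd88 is detected in every type.

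The co-receptors separated as well. Cd14 lies at 36725064 to 36726815 of chromosome 18 (RefSeq, GRCm38.p6). Cd14 averaged 2312 ± 1422 CPM in granulocytes, 2043 ± 832 in border-associated macrophages and 1744 ± 587 in monocyte-derived cells, and neighbours in this order did not differ beyond their spread (adjusted exact permutation p = 0.865 and 0.59). These means pool groups with different orders. In sham granulocytes held the least of the 3 types, 1160 ± 314 CPM against 1697 ± 523 in monocyte-derived cells and 2148 ± 446 in border-associated macrophages, and lay below each of them in 4 of 4 libraries. At stroke day 2 they lay above each of them in 4 of 4, with 3641 ± 1260 CPM. Microglia held 739 ± 606 CPM, lower than monocyte-derived cells by 1.51 log2 units in 11 of 12 libraries (0.00565). Dendritic cells held 244 ± 180 CPM, lower than microglia by 1.63 in 8 of 12 libraries (0.0261). These were the 8 stroke libraries, and in sham dendritic cells held more Cd14 (310 to 684.4 CPM) than microglia (256.8 to 448.2) in 4 of 4. Ly96, which encodes MD-2, had a flatter pattern and reached endothelial cells. It averaged 113 ± 72.5 CPM in border-associated macrophages, 64.3 ± 27.2 in monocyte-derived cells, 53.0 ± 16.3 in microglia and 26.2 ± 10.8 in endothelial cells. Microglia exceeded endothelial cells by 1.06 log2 units in 11 of 12 libraries (0.00391), and monocyte-derived cells did not exceed microglia beyond the spread (0.607), lying above them in 8 of 8 stroke libraries and in 1 of 4 sham libraries. In granulocytes Ly96 averaged 24.2 CPM, lower than in monocyte-derived cells by 2.57 log2 units (0.0097). The adaptor Myd88, shared by nearly all Toll-like receptors, was detected in all 9 types, from 23.9 CPM in endothelial cells to 180 ± 90.2 in granulocytes, which lay above monocyte-derived cells in 4 of 4 libraries at day 14 but in 1 of 4 in sham. Monocyte-derived cells (136 ± 46.3) and dendritic cells (132 ± 61.7) exceeded microglia (64.7) by 1.11 and 0.93 log2 units (0.00377 and 0.0097). Lymphocytes held 33.4 to 50.5 CPM of Myd88.

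In blood the same genes divided neutrophils from monocytes. Of 120 tests between types (20 pairs for each gene), 78 passed. Tlr4 was higher in neutrophils (44.5 ± 19.8 CPM, 11 libraries) than in monocytes (20.5 ± 10.3), by 1.15 log2 units in 11 of 11 libraries (adjusted exact permutation p = 0.003). Cd14 and Myd88 followed the same order, with 173 ± 137 against 54.4 ± 31.5 CPM for Cd14 and 306 ± 34.5 against 155 ± 33.1 CPM for Myd88, each in 11 of 11 libraries (0.003). Tlr7 had the opposite order: it averaged 81.7 ± 28.0 CPM in monocytes, 16.1 ± 4.83 in B cells and 7.21 in neutrophils, and monocytes exceeded B cells in 11 of 11 libraries by 2.25 log2 units (0.003). Tlr2 was 64.9 ± 19.8 CPM in neutrophils and 44.0 ± 10.98 in monocytes, and Ly96 was 36.4 ± 13.8 and 51.6 ± 15.5, with neither difference beyond the spread (0.0757 and 0.0645). For Tlr2 this pools groups: in sham neutrophils held 77.2 to 88.3 CPM and monocytes 32.5 to 42.25, without overlap. The 2 types overlapped at day 2 (40.8 to 81.1 against 36.0 to 62.3 CPM) and at day 14 (25.7 to 56.3 against 35.5 to 53.4). Cd14 was close to 0 in blood lymphocytes: it averaged 0.143 CPM in B cells and 0.699 in T cells, and no count was found in NK cells, which allows up to 3.77 CPM. The same 3 types from brain held 53.4, 14.4 and 24.7 CPM of Cd14. Transcripts from other cells of the same suspension can add such counts in droplets, and their part in the brain lymphocyte levels was not tested.

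**Figure D2:**
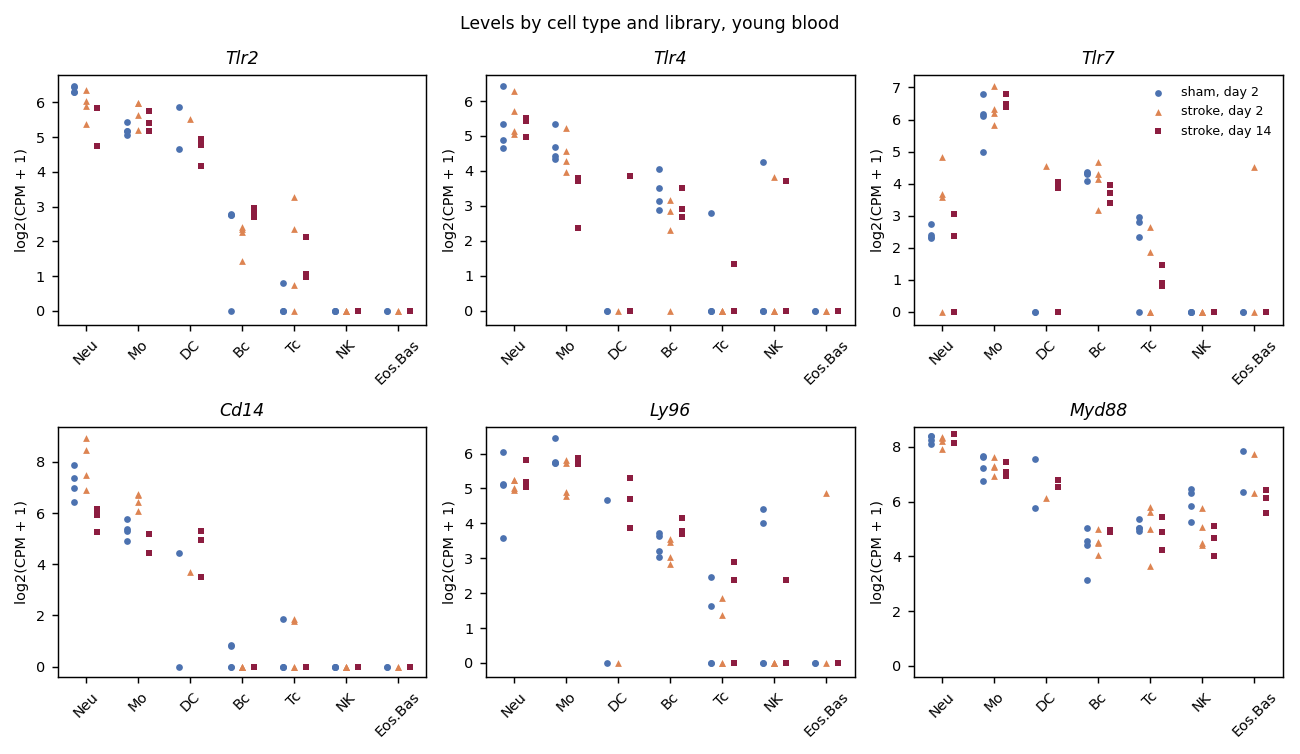
Level of each gene in blood cell types, as log2(CPM + 1), 1 panel per gene; each point is a library, with sham day 2 as blue circles, stroke day 2 as orange triangles and stroke day 14 as dark red squares. Tlr4, Cd14 and Myd88 lie higher in neutrophils than in monocytes, and Tlr7 lies highest in monocytes.

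In microglia these genes differed from the day 2 sham in opposite directions: Tlr2 was higher at both stroke times, Cd14 was higher at day 14, Tlr7 was lower at day 2 and Tlr4 was lower at day 14. The 2 genes called of 6 at day 2 stood beside 31.4% of all genes. The calls of Cd14, Tlr7 and Tlr4 each depended on single libraries, as given below. Tlr2 stood at 79.9, 66.1, 73.5 and 39.0 CPM in sham libraries 1 to 4. It stood at 165.5, 143.5, 338.9 and 227.1 CPM in the stroke day 2 libraries and at 473.5, 172.8, 342.1 and 224.9 CPM in the stroke day 14 libraries. Every stroke library lay above every sham library. The groups averaged 64.6 ± 18.0, 218.7 ± 87.6 and 303.3 ± 133.7 CPM (SD, n = 4 each). The edgeR quasi-likelihood test over all genes, with Benjamini-Hochberg adjustment, gave a log2 fold change of 1.76 ± 0.35 (SE) at day 2 (adjusted p = 0.00273) and 2.70 ± 0.34 at day 14 (adjusted p = 0.000159). Libraries of higher mitochondrial share averaged 59.5, 283.0 and 283.5 CPM in sham, at day 2 and at day 14, and those of lower share 79.9, 154.5 and 323 CPM. These are differences between libraries of pooled mice, so every p-value here measures the spread between such libraries.

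Tlr4 and Tlr7 moved the other way. Tlr4 in microglia was 39.5, 39.4, 39.2 and 48.5 CPM in sham, 31.4, 17.7, 5.97 and 22.2 CPM at stroke day 2, and 11.5, 7.66, 16.2 and 19.8 CPM at day 14. All stroke values lay below all sham values. It fell by 1.12 ± 0.32 on the log2 scale at day 14 (edgeR adjusted p = 0.031), and the day 2 difference of -0.66 ± 0.33 did not pass (0.139). Tlr7 was 230.5, 202.7, 144.0 and 147.2 CPM in sham, 117, 89.0, 39.5 and 82.9 CPM at day 2, and 116, 114, 90.6 and 92.8 CPM at day 14. Here too every stroke library lay below every sham library in CPM. Tlr7 fell by 0.81 ± 0.25 at day 2 (adjusted p = 0.0248) but at day 14 the fitted difference was -0.35 ± 0.23 (0.318). Fitted changes are relative to TMM scaling, and with plain library sizes the median of all genes in microglia moved by -0.17 at day 2 and -0.45 at day 14.

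Among the partners, Cd14 in microglia was 396, 448, 306 and 257 CPM in sham and 1906, 392.5, 834 and 848 CPM at day 14, a rise of 1.95 ± 0.51 (adjusted p = 0.0208) with 1 day 14 library inside the sham range. At day 2 it was 369, 393, 2023 and 692.5 CPM. The groups overlapped, the highest value came from the library that stood apart, and the difference of 1.19 ± 0.51 did not pass (0.0898). Ly96 (58.9 ± 8.31 CPM in sham, 51.6 ± 28.1 at day 2, 48.5 ± 6.12 at day 14) and Myd88 (66.6 ± 20.3, 75.8 ± 42.1 and 51.7 ± 21.75 CPM) did not pass at either time. For both at day 14 the sign of the difference in mean CPM was opposite to that of the fitted change (0.18 ± 0.21 for Ly96, 0.11 ± 0.35 for Myd88). So 2 of 6 genes were called at day 2, where 31.4% of the 10145 genes tested were called, and 3 of 6 at day 14, where 15.2% were. Between day 14 and day 2 none of the 6 was called against 6.93% of all genes (edgeR; Tlr2 0.94 ± 0.34, adjusted p = 0.116).

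Without the stroke day 2 library of replicate 3, Tlr2 (1.68 ± 0.37, adjusted p = 0.00659) and Tlr7 (-0.73 ± 0.22, 0.0276) were still called at day 2, and the Cd14 difference was 0.67 ± 0.46 (0.274). Tlr4 (-0.61 ± 0.31), Ly96 (-0.43 ± 0.22) and Myd88 (0.02 ± 0.40) were again not called, against 27.5% of 11084 genes that were. Between the stroke times none of the 6 was then called against 6.63% (edgeR; Tlr2 1.00 ± 0.37, adjusted p = 0.132). At day 2 Tlr7 did not keep its call without sham replicate 1 or 2 or stroke replicate 2 or 4 (adjusted p 0.0508 to 0.0707). The Tlr4 call at day 14 was lost without 5 of the 8 libraries taken in turn, sham replicates 2, 3 and 4 and stroke day 14 replicates 1 and 2 (0.071 to 0.106), and the Cd14 call without sham replicate 3 or 4 or stroke day 14 replicate 1 (0.0732 to 0.0911). Markers of monocytes and macrophages in the microglial sums moved too: the 7 markers summed to 0 to 23.3 CPM in sham (5 of 7 detected, Fn1 and Vcan at 0), 24.5 to 842 CPM at day 2 (7 of 7) and 26.03 to 126 CPM at day 14 (6 of 7, Vcan at 0). Their part in the changes was not tested. The levels of the authors' brain subclusters, here and below, pool young and aged libraries of all groups. Among microglial subclusters, Tlr2 ranged from 47.4 CPM in Mg1 and 99.5 in Mg2 to 305 in Mg3 and 388 in Mg6, and Cd14 from 284 CPM in Mg1 to 1662 in Mg6. Tlr4 was 40.5 CPM in Mg1 and 44.1 in Mg2 against 15.2 in Mg3 and 17.7 in Mg6, and Tlr7 was 176 CPM in Mg1 and in Mg2 against 90.8 in Mg7. Subclusters were defined on the expression of these same cells, so their levels are a description.

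**Figure D3:**
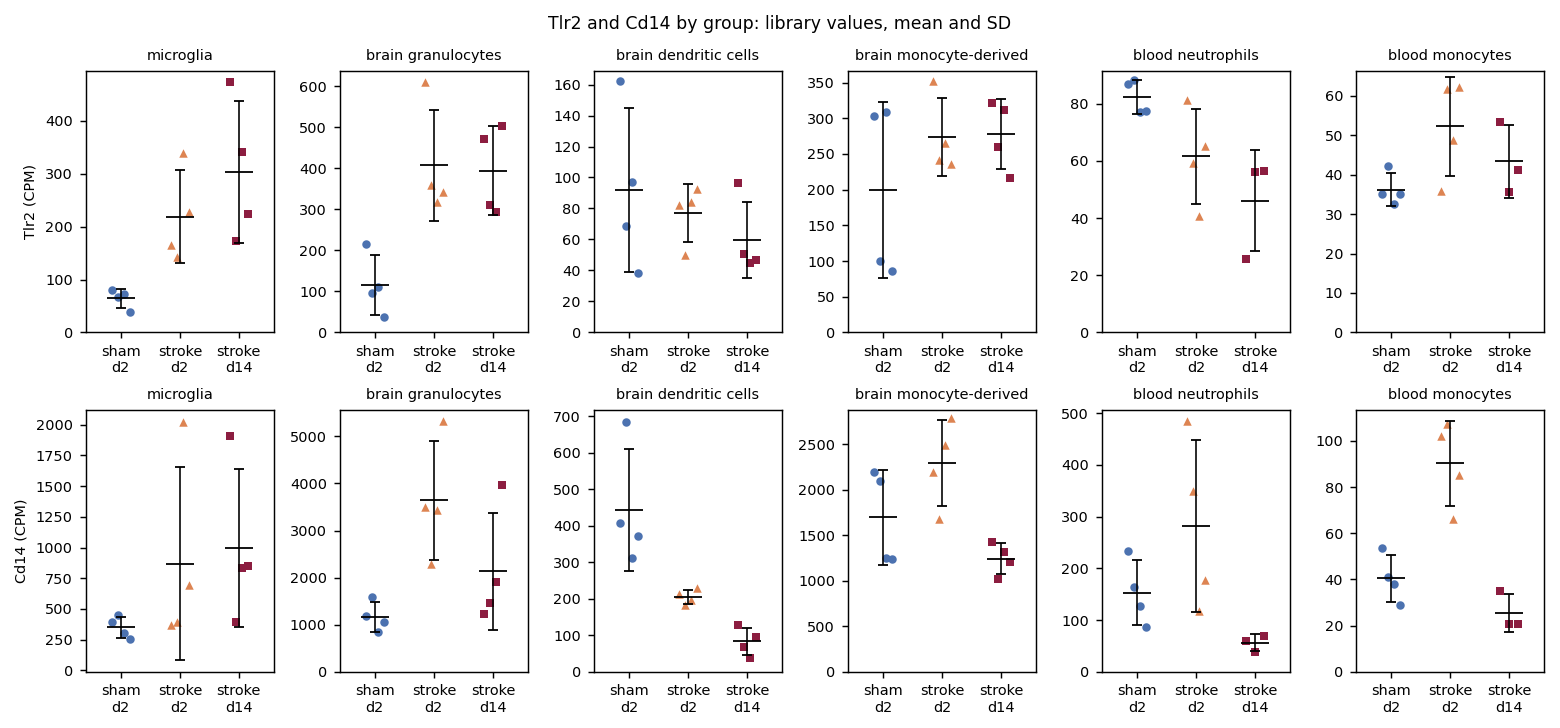
Tlr2 (upper row) and Cd14 (lower row) in CPM for sham day 2, stroke day 2 and stroke day 14 of young mice, in microglia, brain granulocytes, brain dendritic cells, brain monocyte-derived cells, blood neutrophils and blood monocytes; points are libraries, bars the mean and SD. Microglial Tlr2 is above all sham libraries at both stroke times, dendritic Cd14 falls at day 14, and in blood Cd14 is lowest at day 14.

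The wider pathway in microglia was called at shares near those of all genes at day 2 and day 14. A list of 75 genes of the pathway was counted, and 62 of them were tested in microglia. The filter on low counts keeps a gene that is high in 1 group alone, so a list's counts, here and in the other cell types, describe the genes that passed it and support no direction of the list. At day 2, 7 were higher and 10 lower, 27.4% of the list against 31.4% of all genes, with a median log2 fold change of -0.40 against -0.05. At day 14, 11 were higher and 1 lower, 19.4% against 15.2%, with a median of 0.02 against -0.04. Without the target cytokines and chemokines, 4 were higher and 10 lower of 51 at day 2 (27.5%) and 5 higher and 1 lower at day 14 (11.8%). Kinases and ubiquitin ligases of the pathway held 4 genes lower and none higher of 15 at day 2 (26.7%, below the share of all genes). Among them were Irak2, a kinase of the MyD88 complex, from 75.9 to 24.8 CPM (-1.46 ± 0.23, edgeR adjusted p = 0.000587), and Tab2, an adaptor of TAK1, from 355 to 109.5 CPM (-1.34 ± 0.38, 0.0177). Tirap, which bridges TLR2 and TLR4 to MyD88, fell from 29.8 to 18.0 CPM (-0.91 ± 0.27, 0.0238), and the NF-kB subunit gene Rel fell from 164 to 57.2 CPM (-1.44 ± 0.36, 0.00975). Of the accessory genes, 2 of 7 rose at day 2 (28.6%, Cd36 and Scarb1) and 3 of 7 at day 14 (42.9%, these and Ly86). Cd180, a receptor-like regulator of TLR4 counted among the other receptors, rose from 74.3 CPM in sham to 168 at day 2 (1.53 ± 0.33, 0.00431) and 208 at day 14 (1.96 ± 0.32, 0.0012). Its partner Ly86 rose from 1207 to 2808 CPM at day 14 (1.71 ± 0.53, 0.0462). In the list of other receptors Tlr3 fell at day 2 (-0.90 ± 0.33, edgeR adjusted p = 0.0499), a call lost without stroke day 2 replicate 3 (0.0566). Tlr5 of that list, near 0, was also called lower. Irf7, the interferon regulatory factor used by TLR7, rose from 3.91 CPM to 81.2 at day 2 (4.16 ± 0.40, 2.13e-05) and 175 at day 14 (5.89 ± 0.40, 1.77e-06). Of 16 target cytokines and chemokines 11 were tested, of which 3 rose at day 2 and 6 at day 14, beside 31.4% and 15.2% of all genes called. Cxcl10, an interferon-induced chemokine, went from 18.3 to 255 CPM at day 2 (3.81 ± 0.83, 0.00466). Irf7 and Cxcl10 were low in sham and could pass the filter through the stroke libraries alone, so no direction is read from them. Between the stroke times, 6 pathway genes were higher and 2 lower at day 14, 12.9% against 6.93%. Without stroke day 2 replicate 3, 8 pathway genes were higher and 8 lower at day 2 (25.8% against 27.5%), with Irak2 at -1.48 ± 0.23, Tab2 at -1.24 ± 0.37, Tirap at -0.97 ± 0.25, Rel at -1.46 ± 0.39, Cd180 at 1.69 ± 0.25, Irf7 at 4.07 ± 0.41 and Cxcl10 at 3.71 ± 0.88, all still called. Between the stroke times 4 were then higher and 1 lower, 8.06% against 6.63%.

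Brain granulocytes, which carry the neutrophil markers, held more Tlr2 at both stroke times and more Cd14 at day 2. Tlr2 was 215, 96.0, 111 and 38.3 CPM in sham, 610, 359, 319 and 343.5 CPM at stroke day 2 and 473, 311, 293 and 502 CPM at day 14, from 29 to 169 cells per library. All stroke libraries lay above all sham libraries. Cd14 was 1176, 1582, 835 and 1049 CPM in sham and 3507, 2291, 3429 and 5338 CPM at day 2, with no overlap, and 1226, 1451, 1897 and 3960 CPM at day 14, with overlap. Of the 3 genes with enough counts to test (Tlr2, Cd14 and Myd88), 2 were called at day 2 against 8.35% of 994 genes: Tlr2 by 1.58 ± 0.45 (edgeR adjusted p = 0.0307) and Cd14 by 1.45 ± 0.40 (0.0292). One of 3, Tlr2 (1.37 ± 0.45, 0.0319), was called at day 14 against 26.1% of genes, and none between the stroke times against 4.23% (Cd14 -0.95 ± 0.40, 0.204). The filter on low counts keeps a gene that is high in 1 group alone, and sham Tlr2 was only 38.3 to 215 CPM. Tlr2 could therefore pass through the stroke libraries alone, so its calls and the counts that hold them support no direction. Myd88 at day 14 was 188.7, 416.1, 219.6 and 201.3 CPM against 162.8, 138.5, 117.2 and 88.41 in sham, without overlap, but the fitted change of 0.46 ± 0.43 did not pass (0.488).

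The granulocyte calls rest on few cells. Tlr2 averaged 81.9, 331 and 398 CPM in sham, at day 2 and at day 14 in the libraries of higher mitochondrial share, and 214.9, 485 and 392 CPM in those of lower share. At day 2 the Tlr2 call was lost without any single library except sham replicate 1 (edgeR adjusted p 0.0505 to 0.16) and the Cd14 call without any except stroke replicate 2 (0.0602 to 0.159). At day 14 the Tlr2 call was lost without sham replicate 2, 3 or 4 or stroke replicate 1 or 4 (0.065 to 0.119). All these calls were also lost without the filter on low counts, where far more genes were tested, and the day 14 call was lost by DESeq2. The sum of neutrophil markers in these cells was 225500 to 295400 CPM in sham, 112700 to 206000 at day 2 and 54240 to 70660 at day 14, where Ly6g was at 0. Monocyte markers summed to 693 to 2677, 259 to 1491 and 268 to 899 CPM in the same order, and microglial markers to 110 to 402, 79.4 to 643 and 369 to 599 CPM, and the part of these shifts in the changes was not tested. In the finer annotation, pooled over young and aged libraries, Cd14 was 5056 CPM and Tlr2 433 CPM in the subcluster Gran2 against 382 and 25.9 CPM in Gran4. Only 15 of the 75 pathway genes passed the filter in these small sums, so no share of the list is given. Called among the 15 were Nfkbia, the inhibitor that NF-kB itself induces, from 1733 to 13300 CPM at day 14 (2.55 ± 0.33, edgeR adjusted p = 1.45e-05), and the chemokine Ccl4 from 67.2 to 5130 CPM (5.85 ± 0.53, 3.99e-07). Ccl4 was low in sham and could pass the filter through the stroke libraries alone, so no direction is read from it.

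Cd14 fell in brain dendritic cells. It was 406, 684, 310 and 370 CPM in sham, 213.5, 183, 197 and 228 CPM at stroke day 2, and 127.5, 68.5, 38.8 and 95.9 CPM at day 14. The 3 groups did not overlap, and averaged 443 ± 166, 205 ± 19.5 and 82.7 ± 37.9 CPM. At day 14 Cd14 fell by 2.43 ± 0.40 on the log2 scale (edgeR adjusted p = 0.00908), the only 1 of 3 genes called (Tlr2, Cd14 and Myd88 were tested) against 1.53% of 4365 genes. The main edgeR fit called none at day 2 against 1.01% (Cd14 -1.15 ± 0.38, 0.165) or between the stroke times against 0.893% (Cd14 -1.28 ± 0.37, 0.132). Between the stroke times, DESeq2 and edgeR with the replicate number as a block each called 1 gene of the set. The Cd14 call at day 14 did not hold without sham replicate 2 (edgeR adjusted p = 0.0522). Within the mitochondrial classes, Cd14 averaged 454.9 CPM in sham and 67.3 CPM at day 14 in the libraries of higher share, and 406 and 98.0 CPM in those of lower share. The markers of border-associated macrophages, in which Cd14 was high, moved with it: they summed to 331.5 to 689 CPM in sham dendritic cells (61 to 86 cells per library), 83.0 to 124 CPM at day 2 and 26.2 to 101 CPM at day 14, with Lyve1 at 0 in sham and at day 14. Monocyte markers went the other way, from 2085 to 2944 CPM in sham to 3066 to 5161 at day 14, and dendritic markers summed to 1262 to 1967, 762 to 1376 and 1141 to 2602 CPM in the 3 groups. The part of such cells in the change was not tested. Cd14 differed among the subclusters of dendritic cells, pooled over young and aged libraries, from 25.5 CPM in DC2 to 743.5 in DC7.

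Monocyte-derived cells were few in sham brain (43 to 99 cells per library) and many after stroke (1468 to 2180 at day 2, 489 to 857 at day 14). Tlr2 in them was 303, 100.2, 309 and 85.6 CPM in sham, 353, 241.5, 265 and 235.5 CPM at day 2 and 322, 260, 312 and 216 CPM at day 14, and sham overlapped both. Cd14 was 2199, 2098, 1252 and 1240 CPM in sham, 2196, 1682, 2498 and 2790 CPM at day 2, and 1423, 1022, 1321 and 1205 CPM at day 14. The 2 stroke times did not overlap for Cd14. All 6 genes were tested and none was called at day 2 (6.71% of 8080 genes called; Cd14 0.88 ± 0.32, edgeR adjusted p = 0.12), at day 14 (5.15%; Tlr2 0.77 ± 0.32, 0.222) or between them (1.79%; Cd14 -0.94 ± 0.32, 0.194). DESeq2 called Cd14 in the last of these. Of the pathway list without target cytokines and chemokines, 1 of 46 was called at day 2, Irf7, which rose from 120 to 275 CPM (1.77 ± 0.46, edgeR adjusted p = 0.0325). At day 14, 3 were higher and 1 lower (8.7%), with Irf7 at 514 CPM (2.61 ± 0.46, 0.00337). In the subclusters, pooled over young and aged libraries, Cd14 ranged from 1117 CPM in MdC6 to 3598 in MdC2. Border-associated macrophages and endothelial cells had no call among the 6 genes. In the macrophages Tlr2 and Cd14 were tested, and 2.67%, 0.0762% and 0.838% of 1313 genes were called at day 2, at day 14 and between the stroke times. Cd14 in them was 1623 to 2553 CPM in sham, 655 to 2425 at day 2 and 772.8 to 3604 at day 14, and all 3 ranges overlapped. In endothelial cells Cd14, Ly96 and Myd88 were tested, with 13.3%, 0.0% and 11.2% of 5833 genes called in the same order; for the second, edgeR left 356 genes at an unadjusted p under 0.05, and DESeq2 gave 14 calls. Endothelial Cd14 was 35.33, 0, 0 and 19.31 CPM in sham and 69.63, 48.08, 66.22 and 5.894 CPM at day 2 (1.59 ± 0.80, edgeR adjusted p = 0.193). Pooled over young and aged libraries, endothelial Cd14 concentrated in subcluster EC6, at 329 CPM against at most 28.5 in the others. Endothelial Tlr4 was too low to test and no difference is read from it: it had 0 counts in the 4 sham libraries, from sums of 100317 to 377240 counts, 0.8 to 4.7 counts at day 2, from sums of 343753 to 730352, and 0 to 5.6 counts at day 14.

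In blood the late time differed: Cd14 and Tlr2 fell in neutrophils at day 14. Neutrophil Cd14 was 234, 164, 127 and 85.9 CPM in sham, 484, 350, 118 and 177.5 CPM at stroke day 2, and 59.5, 37.8 and 70.0 CPM at day 14. All day 14 libraries lay below all others, while sham and day 2 overlapped. Each library carries a code in the metadata field study.ident, whose meaning is not given in the sources used here. Replicate 1 of sham and of stroke day 2 share the stem of this code, as do both of replicate 2. Cd14 was 234 and 484 CPM, and 164 and 350 CPM, in sham and stroke of these 2 pairs. Neutrophil Tlr2 was 86.9, 88.3, 77.2 and 77.5 CPM in sham, 81.1, 59.2, 40.8 and 65.1 CPM at day 2, and 25.7, 56.2 and 56.3 CPM at day 14, where every library lay below sham. Of 5 genes tested (all but Tlr7), 2 were called at day 14 against sham and 5.99% of 4944 genes: Cd14 (-1.93 ± 0.50, edgeR adjusted p = 0.0314) and Tlr2 (-1.22 ± 0.33, 0.0369). One, Cd14 (-2.77 ± 0.50, 0.00537), was called between day 14 and day 2 against 4.69%. At day 2 against sham edgeR called none of the 5 and 0.0% of all genes, with 209 at an unadjusted p under 0.05 and none by DESeq2 (Cd14 0.85 ± 0.38, adjusted p = 0.997). With the shared code stem as a term, the Cd14 difference was 0.79 ± 0.21 at day 2 (edgeR adjusted p = 0.409). At day 14 against sham it was then -1.25 ± 0.30, still called (0.0262), and Tlr2 was not (-1.10 ± 0.33, 0.0609). Tlr4, Ly96 and Myd88 were not called in any of the 3 contrasts, with differences of -0.62 ± 0.38 (Tlr4 between the stroke times) to 0.11 ± 0.33 (Tlr4 at day 2). Both calls against sham were lost with plain library sizes in place of TMM (adjusted p 0.0522 for Cd14 and 0.0893 for Tlr2); that of Cd14 was also lost without sham replicate 1 or any one of the 3 day 14 libraries (0.0973 to 0.119), and that of Tlr2 without sham replicate 1, 2 or 3 or day 14 replicate 1 or 3 and with the replicate number as a block (0.0588). Neutrophil markers summed to 198400 to 305200 CPM in sham, 172300 to 266100 at day 2 and 111800 to 191200 at day 14, and B cell markers to at most 116 CPM in sham, at most 54.1 at day 2 and 150 to 299 CPM at day 14, and their part was not tested. Of the pathway list without targets, 3 were higher and 1 lower of 34 at day 14 against sham (11.8% against 5.99% of all genes), among them Unc93b1, which carries endosomal Toll-like receptors out of the endoplasmic reticulum, from 83.9 to 267 CPM (1.33 ± 0.25, edgeR adjusted p = 0.00592), and Hsp90b1, their chaperone, from 36.5 to 165 CPM (1.98 ± 0.40, 0.00908). Between the stroke times 3 were higher and 2 lower (14.7% against 4.69%), with Irak2 from 7.85 to 56.5 CPM (2.35 ± 0.53, 0.0181) and the receptor Tlr13 from 239 to 175 CPM (-0.77 ± 0.20, 0.0378). Irak2 was low at day 2 and could pass the filter on low counts through other groups, so no direction is read from it. Among neutrophil subclusters Cd14 ranged from 52.9 CPM in Neu6 to 433 in Neu1.

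Blood monocytes showed the same order of Cd14 over the 3 groups. It was 53.8, 41.0, 38.1 and 28.8 CPM in sham, 102, 107, 66.2 and 85.1 CPM at day 2 and 34.9, 20.5 and 20.5 CPM at day 14. Day 2 lay above sham and above day 14 in every library. All 6 genes were tested, and Cd14 was called between day 14 and day 2 (-1.85 ± 0.31, edgeR adjusted p = 0.00843), 1 of 6 against 0.537% of 6706 genes, a call lost without day 14 replicate 2 (0.0958) or replicate 3 (0.0536). At day 2 against sham edgeR called none of the 6 and 0.0% of all genes (189 at an unadjusted p under 0.05, none by DESeq2), and Cd14 had a difference of 1.15 ± 0.27 with an unadjusted p of 0.000588. In the 2 pairs that share a code stem it was 53.8 and 102 CPM, and 41.0 and 107 CPM. With the stem as a term the difference was 1.17 ± 0.26 (edgeR adjusted p = 0.386). At day 14 against sham none was called against 0.254%. Tlr4 was then 12.9, 4.198 and 12.15 CPM against 19.36, 39.4, 24.95 and 20.43 in sham, without overlap (-1.41 ± 0.47, adjusted p = 0.457). Tlr2, Tlr7, Ly96 and Myd88 differed by -0.44 ± 0.30 (Ly96 at day 2) to 0.51 ± 0.26 (Tlr2 at day 2) over the 3 contrasts. Monocyte markers were also highest at day 2 (15090 to 18140 CPM, against 9950 to 15640 in sham and 9754 to 12060 at day 14), and neutrophil markers in monocytes summed to 277 to 662 CPM in sham, 413 to 966 at day 2 and 149 to 207 at day 14; their part was not tested. The monocyte subcluster Mo3 joined the highest Tlr7 (137 CPM) to the lowest Cd14 (14.5 CPM), and Mo2 held 91.3 CPM of Cd14. In blood B cells Tlr7, Ly96 and Myd88 were tested and none was called, with 0.0% of 8762 genes called at day 2 (171 at an unadjusted p under 0.05 by edgeR, none by DESeq2) and 0.0114% in each of the other comparisons. B cell Tlr7 was 15.88 to 19.43 CPM in sham, 7.962 to 24.56 at day 2 and 9.516 to 14.44 at day 14 (-0.60 ± 0.36 at day 14 against sham, adjusted p = 1). The subcluster Bc5 held 52.1 CPM of Tlr7, against 9.82 to 14.7 in the other B cell subclusters.

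**Figure D4:**
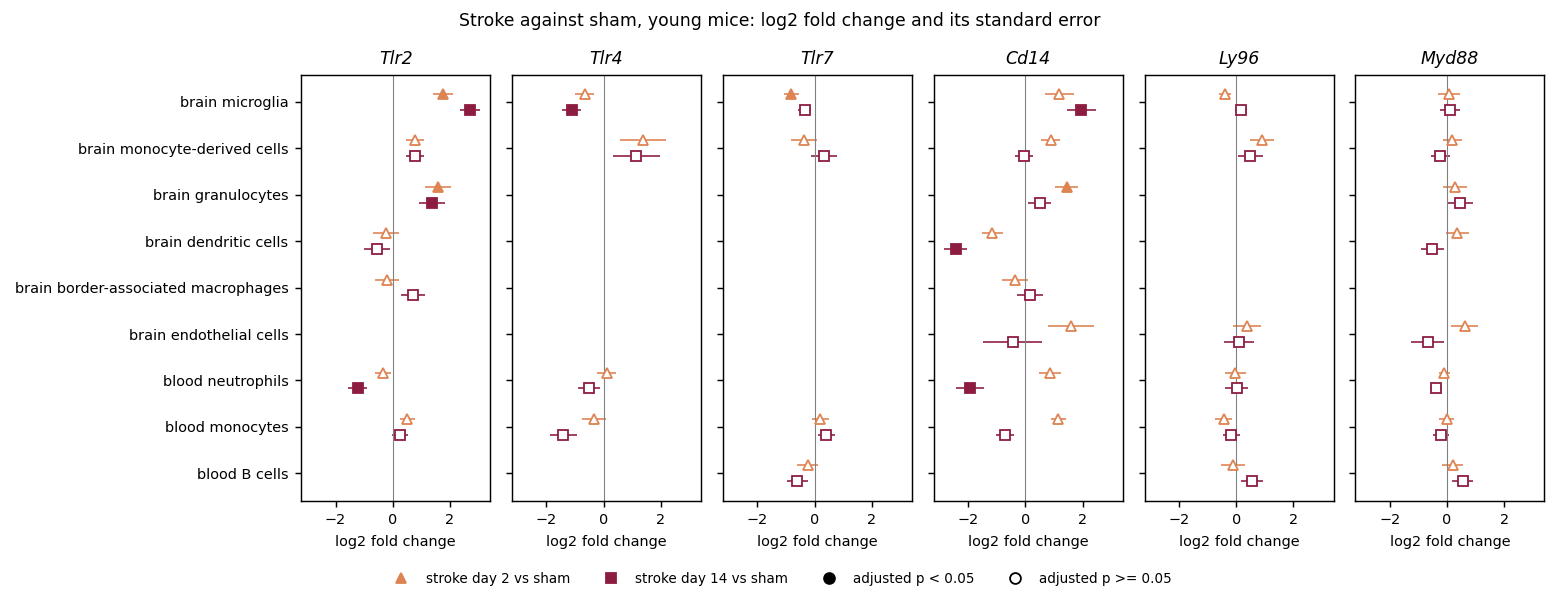
Log2 fold change with its standard error for each gene and cell type tested, stroke day 2 and stroke day 14 each against the same day 2 sham libraries; filled points passed an adjusted p of 0.05 (edgeR quasi-likelihood test). Tlr2 is above 0 in microglia and brain granulocytes and below 0 in blood neutrophils at day 14, and Cd14 is below 0 in dendritic cells.

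Monocyte-derived cells of the brain held more Cd14 and Tlr2 than blood monocytes, in sham as well as after stroke. In sham, which was not tested, Cd14 was 1240 to 2199 CPM in the brain cells and 28.8 to 53.8 CPM in the blood cells, and Tlr2 was 85.6 to 309 against 32.5 to 42.2 CPM. At day 2 Cd14 was 1682 to 2790 CPM in the 4 brain libraries and 66.2 to 107 CPM in the 4 blood libraries, and Tlr2 was 235.5 to 353 CPM against 36.0 to 62.3 CPM. Of 6 genes, 4 were called against 28.6% of the 7651 genes tested. Cd14 was higher in brain by 4.98 ± 0.31 (edgeR adjusted p = 3.5e-08), Tlr2 by 2.70 ± 0.24 (7.71e-07) and Ly96 by 1.21 ± 0.31 (0.00772), while Tlr7 was lower by 0.96 ± 0.27 (0.015). Tlr7 was 48.47, 29.73, 25.38 and 32.27 CPM in brain and 79.74, 131.6, 55.48 and 73.08 CPM in blood. Tlr4 and Myd88 differed by 0.01 ± 0.40 and 0.04 ± 0.28. At day 14, 2 of 6 were called against 17.8% of genes, Cd14 (5.89 ± 0.37, 6.59e-08) and Tlr2 (2.95 ± 0.26, 1.08e-06), with 1022 to 1423 CPM of Cd14 in brain and 20.5 to 34.9 CPM in blood. Brain granulocytes compared with blood neutrophils at day 2 had the same 2 genes called of 3 tested, against 13.5% of 2000 genes: Tlr2 by 2.48 ± 0.34 (1e-05) and Cd14 by 3.61 ± 0.50 (1.16e-05). Tlr2 was 319 to 610 CPM in the brain cells and 40.8 to 81.1 CPM in the blood cells. It could pass the filter on low counts through the brain cells alone, and its call was kept without that filter. In sham Cd14 was also higher in granulocytes (835 to 1582 CPM) than in neutrophils (85.9 to 234 CPM), while Tlr2 overlapped (38.3 to 215 against 77.2 to 88.3 CPM). Myd88 was lower in the brain cells by 0.71 ± 0.32, which did not pass (0.139). These calls held in every alternative that was run. The 2 tissues came from different mice and were prepared differently, by papain digestion and sorting or by red cell lysis and depletion, so tissue and preparation cannot be told apart. Young brain and blood libraries also came as separate sets of tables (19704 and 16623 genes), so tissue and table set cannot be told apart either.

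**Figure D5:**
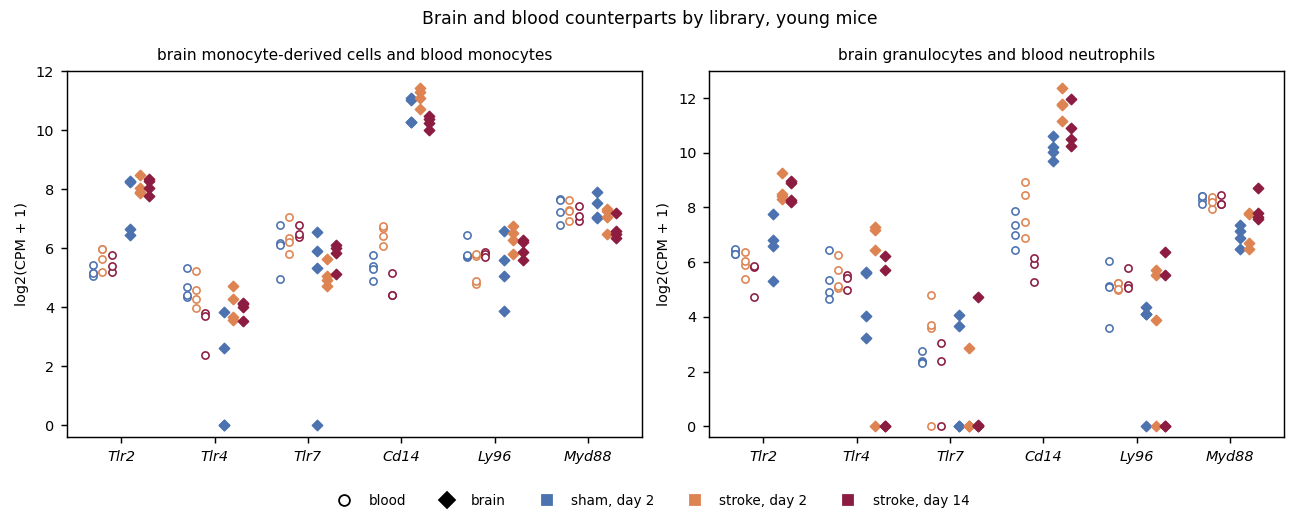
Level of each gene per library, as log2(CPM + 1), in brain monocyte-derived cells (diamonds) beside blood monocytes (open circles), and in brain granulocytes beside blood neutrophils; colours mark sham day 2, stroke day 2 and stroke day 14. Cd14 lies higher in the brain cells in sham and after stroke, Tlr2 of granulocytes and neutrophils overlaps in sham, and Tlr7 in monocyte-derived cells lies below blood monocytes at day 2.

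The pathway genes in the same comparisons, without target cytokines and chemokines, showed 9 higher and 10 lower of 44 in brain monocyte-derived cells at day 2 (43.2% called, against 28.6% of all genes). At day 14, 7 were higher and 6 lower (29.5% against 17.8%). The higher genes at both times included Tnfaip3 and Tlr1, which were low in blood and could pass the filter through the brain cells alone. These shares are therefore a description and support no excess over all genes. The target cytokines and chemokines, of which 10 of 16 were tested, are left out of these counts, since some passed the filter through the brain cells alone: Cxcl10 and Ptgs2 were at 0 in all 4 blood libraries at day 2, against 365 and 482 CPM in brain. Nfkbia stood at 4971 CPM in brain and 538 in blood at day 2 (3.54 ± 0.32, edgeR adjusted p = 1.01e-06), and Tnfaip3, an enzyme that restrains NF-kB signalling, at 114 and 4.40 CPM. On the lower side were Tab2 (82.4 against 276 CPM), Tlr8, a further endosomal receptor (13.1 against 35.9 CPM), and the scavenger receptor Cd36 (52.2 against 188 CPM). In granulocytes against neutrophils only 25 of the 75 pathway genes passed the filter, so no share of the list is given. Ccl3 (558 against 3.64 CPM) and Tnfaip3 (308 against 5.81 CPM) were called there. Ccl3 and, in both cell comparisons, Tnfaip3 were near 0 in blood and could pass the filter through the brain cells alone, so no direction is read from them.

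In aged microglia Tlr2 was 89.1 and 62.8 CPM in the 2 sham libraries (female, male) and 225, 157 and 142 CPM in the 3 stroke day 2 libraries (female 1, female 2, male). The groups did not overlap, but the change of 1.25 ± 0.39 did not pass (edgeR adjusted p = 0.112), and none of the 6 genes was called against 2.3% of 11096 genes. Cd14 was 342.5 and 339 CPM in sham and 623, 223 and 929 CPM after stroke (0.87 ± 0.57, 0.491), with overlap of the ranges. Tlr4 was 49.04 and 40.74 CPM in sham and 32.76, 31.36 and 21.83 CPM after stroke, without overlap (-0.59 ± 0.39, 0.496). Tlr7, Ly96 and Myd88 differed by -0.14 ± 0.33, -0.20 ± 0.31 and 0.71 ± 0.43. Of 51 pathway genes without targets 1 was called (1.96%), Irf7, from 16.8 to 144 CPM (3.44 ± 0.54, edgeR adjusted p = 0.00805). Here too Irf7 could pass the filter through the stroke libraries alone, and no direction is read from it. The difference between the aged and the young response at day 2 was tested as an interaction, and none of the 6 was called and 0.0% of all genes, with 623 at an unadjusted p under 0.05 and none by DESeq2. For Tlr2 that difference was -0.54 ± 0.48 (adjusted p = 0.832), and without young stroke day 2 replicate 3 it was -0.51 ± 0.49 (0.814) with again none of the 6 called. In sham microglia none of the 6 differed between aged and young against 0.018% of genes (Tlr2 0.32 ± 0.36), and in monocyte-derived cells after stroke none did against 0.0% of 8167 genes, with 154 at an unadjusted p under 0.05 by edgeR and 13 called by DESeq2 (from -0.51 ± 0.38 for Ly96 to 0.63 ± 0.50 for Tlr4). Young mice were all male and aged mice were of both sexes, so age and sex cannot be told apart fully. Aged and young brain libraries also came as separate sets of tables (27514 and 19704 genes), so age and table set cannot be told apart in these comparisons. Aged granulocytes, from 31 to 101 cells per library at day 2, held 238 and 609.6 CPM of Cd14 in sham and 4951 to 5989 CPM in stroke, the same order as in young mice, and this was not tested.

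Lastly, the genes whose level over cell types and groups was most like each of the 6 were found by Pearson's r on log2(mean CPM + 1), over 27 means of 10 types in young brain and 20 means of 7 types in blood. The means share libraries and cells, so r is a description without a test. In brain Tlr2 was nearest to Clec5a (r = 0.918), Milr1 (0.909) and Cd14 itself (0.895), and Cd14 to Ftl1 (0.911), C5ar1 (0.901) and Tlr2. Tlr4 was nearest to C5ar1 (0.905), the receptor for complement C5a, Hmox1 (0.891) and Fcgr4 (0.846). Tlr7 was nearest to Cebpa (0.892), Trem2 (0.833), a lipid receptor of microglia, and Scamp2 (0.803). Ly96 was nearest to Atp13a2 (0.884), Flcn (0.879) and Rin2 (0.846), and Myd88 to Ccr1 (0.814), Cebpb (0.792) and Msrb1 (0.788). In blood the nearest gene was Mpeg1 for Tlr2 (0.942), Adprh for Tlr4 (0.909), Apoe for Tlr7 (0.833), Sirpb1c for Cd14 (0.961), E2f2 for Ly96 (0.936) and Orai1 for Myd88 (0.966). Within the set, Cd14 and Tlr2 had r = 0.895 in brain and 0.916 in blood, while Ly96 and Myd88 had r = 0.216 in brain.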

How the data were processed

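Single-cell expression was measured by Drop-seq in 18 brain and 11 blood libraries. Per the file contents and the labels, the authors deposited 1 table of expected counts per gene and cell for each library, with their cell type annotation and their percent of mitochondrial counts per cell. The values are fractional. The step that made them so, and the aligner, are not given in the sources used here, and the submitters' processing notes name Seurat and the build mm10. Every deposited cell was kept, and doublets were neither called nor removed. Counts were summed per library and parent cell type, rounded, and kept where a library had at least 20 cells of the type.

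Groups were compared in edgeR 4.0.16 (R 4.3.3) by its quasi-likelihood test, with TMM scaling and filterByExpr. P-values were two-sided and adjusted by the Benjamini-Hochberg method over all genes tested, and a gene was called at an adjusted p under 0.05. Fits of young brain and of blood each held 3 groups, and those with aged mice held the 4 brain groups of day 2. Levels between types used log2(CPM + 1) with a pseudocount of 1, over pairs of types with at least 6 libraries. Alternatives were DESeq2 1.42.0, no filter, plain library sizes, counts rounded up, 50 cells per library, a replicate block, only the compared groups and each library left out. The fits with aged mice were also run with sex as a term. Chosen after seeing the data were a mitochondrial class term (boundary 1%) and, in blood, a term for study.ident codes that share a stem. Same-numbered libraries did not deviate together in every pair (4 to 6 of 10 to 12 pairs per fit over r = 0.1, medians 0.02 to 0.11). Numbers were therefore not used as a block in the main fits. Single pairs did reach r = 0.76 in monocyte-derived cells and 0.74 in dendritic cells of the brain. In blood, replicates 1 and 2 of sham and of stroke day 2 do share a code stem by number (r of their deviations 0.10 to 0.35 over 3 cell types). The fits were also run on simulated counts with the same spread for all genes. Such counts cannot show how the fits behave where spread differs between genes or a library stands apart.

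The 6 genes, the marker lists and the pathway list were chosen with earlier results of these data known. The naming rule took the 6 genes in every comparison, the 3 genes most like each, and at most 2 called pathway genes per role and comparison (mean at least 20 CPM, largest change). Of the 6, some not called are given as a count or range, and of the pathway genes only a part is given.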

Additional observations from a re-analysis of the deposited data

Results flagged for a closer look

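Among 97 groups of 4 libraries, 8 held a library far from the other 3, and chance gives about 1 in 20. In microglia these were Tlr4 in sham replicate 4 (48.46 CPM, next 39.45), Ly96 in sham replicate 1 (71.39, next 55.29) and Ly96 in stroke day 14 replicate 2 (57.58, next 46.34). In brain granulocytes they were Tlr2 in stroke day 2 replicate 1 (610.0 CPM, next 359.3, from 53 cells) and Myd88 in stroke day 14 replicate 2 (416.1, next 219.6, from 29 cells). In brain dendritic cells they were Tlr2 in stroke day 14 replicate 1 (96.57 CPM, next 50.91) and Myd88 in stroke day 14 replicate 3 (141.8, next 83.9), and in blood monocytes Ly96 in sham replicate 3 (85.93 CPM, next 53.22).

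The single library of aged mice at stroke day 14, which entered no comparison, had levels in microglia (1804 cells) above both aged sham libraries: 252.6 CPM of Tlr2 against 62.81 to 89.06, and 709.9 CPM of Cd14 against 339.2 to 342.5. With 1 library this was not tested.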

How the results depend on the processing

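The 34 comparisons gave 21 calls of the 6 genes, and over 314 alternative fits of those calls 263 kept the call, 51 kept the direction only and 0 reversed. Tlr2 in microglia at both times, Cd14 in blood neutrophils between day 14 and day 2, and the brain against blood calls were kept in every alternative run. Leaving out 1 library gave 1 to 3 genes called in microglia at day 2 and at day 14. It gave 0 to 1 in endothelial cells (day 14 against day 2), in dendritic cells at day 14, in granulocytes at day 2, at day 14 and between them, and in blood monocytes (day 14 against day 2), and 0 to 2 in blood neutrophils at day 14. The count moved to 0 without the filter on low counts in granulocytes at day 2 and day 14, where far more genes were tested, and to 2 in neutrophils (day 14 against day 2). DESeq2 gave 1 in monocyte-derived and 1 in dendritic cells between the stroke times and 0 in granulocytes at day 14. Plain library sizes gave 2 in granulocytes at day 14 and 0 in neutrophils at day 14, and rounding up gave 1 in endothelial cells at day 2. For moves with no construction named, the cause was not tested. The replicate block gave 1 in dendritic cells (day 14 against day 2) and 1 in neutrophils at day 14, where Tlr2 was lost (adjusted p = 0.0588), and changed no other count; shared numbers did not pair the libraries across all groups. The shared code stem as a term, chosen after seeing the data, gave 1 in neutrophils at day 14 (Tlr2 lost, edgeR adjusted p = 0.0609). It changed no other count in blood. Of the tests between types, 48 passed in blood with 50 cells per library. Fewer than 120 were run in that setting, since dendritic cells and eosinophils and basophils no longer had 6 libraries. With sham libraries only, 0 passed in either tissue, where 4 libraries cannot pass by construction. Over all genes, 184 of 522 alternative counts differed by more than 1.5 times, for example 3425 genes called in microglia at day 14 with plain library sizes against 1544. Depth limits Tlr4, Tlr7 and Ly96 most: they were too low to test in granulocytes and dendritic cells.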
